A study of Caenorhabditis elegans with 18 samples.

Results

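The transcript *tts-1* is a long noncoding RNA gene of *Caenorhabditis elegans* on chromosome X, with the locus name F09E10.11. It was followed here through every probe set that carries *tts-1* as its single gene symbol in the platform annotation. Of the 22625 probe sets on the array, which give 17118 genes a probe set of their own, 1 met this rule (174073_at), and 0 of the 887 probe sets with several symbols name *tts-1* among them. The gene was chosen because of its levels in these same arrays, so its levels and differences are given below as a description, with standard errors and without a test.

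In *C. elegans* *tts-1* is known as an abundant RNA of dauer larvae and of long-lived mutants of the insulin receptor gene *daf-2*, where it depends on the FOXO transcription factor DAF-16. It is associated with ribosomes there, lowers ribosome levels, and is needed for the full lifespan of those mutants.

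RNA came from whole worms of the wild-type strain N2, which carries no transgene. The 6 groups were worms fed the *Lactobacillus rhamnosus* strain CNCM I-3690, the strain CNCM I-4317 of the same species, or *Escherichia coli* OP50, the usual laboratory food and here the control diet, for 10 days or for 3 days. Each population was synchronized from embryos of mothers kept on the same food. There were 3 arrays in each group (18 in all), labelled as separate samples. The methods state 4 biological replicates per condition, and 3 arrays per group are used here. The labels do not say whether the arrays of a group come from separate cultures, and p-values then measure only the spread between these arrays, which may be technical. How progeny were kept apart from the 10-day adults is likewise not given in those sources.

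Levels are log2 expression values after background correction and quantile normalization. The array medians lay between 1.27 and 1.40, close to the floor of the scale, and within a group r between arrays was 0.981 to 0.996 over the probe sets. The number of arrays limits the precision. The RNA was labelled from its poly(A) tails, so 174073_at reads the 3′ part of the transcript. A whole-worm level cannot tell fewer cells of a type from less RNA per cell.

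The level of *tts-1* was high on every diet at 10 days, and at 3 days it was far lower on both *Lactobacillus* diets than on OP50. At 10 days, CNCM I-3690 worms had levels of 8.25, 8.91 and 8.80 on the 3 arrays. CNCM I-4317 worms had levels of 8.51, 8.14 and 8.09 at that time. OP50 worms had levels of 8.70, 8.82 and 8.86. All 9 arrays of this time thus lay within 0.82 log2 units of each other, between 8.09 and 8.91.

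At 3 days the groups stood far apart. CNCM I-3690 worms had levels of 3.28, 2.97 and 4.06, and CNCM I-4317 worms had levels of 3.04, 3.03 and 3.14. OP50 worms had levels of 4.68, 7.11 and 6.67. Every array of both *Lactobacillus* diets was below every OP50 array, and the OP50 arrays differed among themselves more than those of any other group, with replicate 1 far below replicates 2 and 3. The lowest of the 18 levels was still 1.58 log2 units above the median of its own array, and the highest was 7.64 above it.

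The group means at 10 days were 8.65 ± 0.35 on CNCM I-3690, 8.25 ± 0.23 on CNCM I-4317 and 8.79 ± 0.085 on OP50 (SD, n = 3 each). At 3 days they were 3.44 ± 0.56 on CNCM I-3690, 3.07 ± 0.063 on CNCM I-4317 and 6.16 ± 1.29 on OP50 (SD, n = 3 each). In ascending order the groups were CNCM I-4317, CNCM I-3690 and OP50 at 3 days, followed by CNCM I-4317, CNCM I-3690 and OP50 at 10 days, the same order of diets at both times. Neighbours in this order overlapped in their arrays for CNCM I-3690 and CNCM I-4317 at 3 days, for CNCM I-3690 and CNCM I-4317 at 10 days, and for CNCM I-3690 and OP50 at 10 days. The range of the 6 group means was 5.73 log2 units, which ranked 48 among the ranges of the 22625 probe sets.

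**Figure D1:**
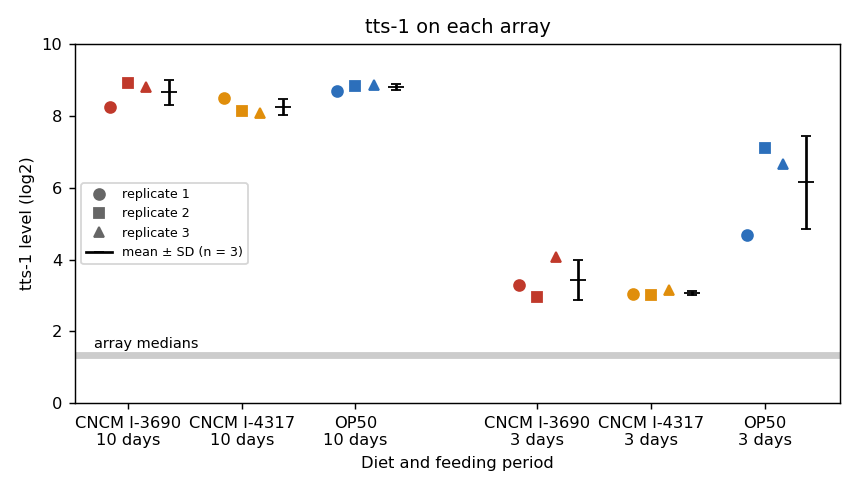
Level of *tts-1* (log2 expression) on each of the 18 arrays by diet and feeding period, with replicate numbers as symbols and the mean ± SD of each group (n = 3) beside them; the grey band spans the array medians. The 10-day arrays lie between 8.09 and 8.91, and at 3 days the *Lactobacillus* arrays (2.97 to 4.06) lie below the OP50 arrays (4.68 to 7.11).

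In young worms each *Lactobacillus* diet was compared with OP50 after 3 days of feeding. The mothers were kept on the same food, so their diet can be part of each difference. *tts-1* was 6.58-fold lower on CNCM I-3690 than on OP50, a log2 difference of -2.72 (standard error 0.43). It was 8.50-fold lower on CNCM I-4317 than on OP50, a log2 difference of -3.09 (standard error 0.43). In both comparisons this was the lowest of the 22625 log2 differences. Both share the OP50 arrays, so they are not separate measurements of that group. The standard errors of *tts-1* rest on a spread shared by all groups, although the group SDs ran from 0.063 to 1.29. They can thus be too small for comparisons with the 3-day OP50 arrays, and too large between groups of small SD.

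The 9 differences between single arrays ran from -4.14 to -0.62 for CNCM I-3690 against OP50 and from -4.09 to -1.54 for CNCM I-4317 against OP50. The smallest gaps involved OP50 replicate 1. Without that array the log2 differences were -3.45 on CNCM I-3690 and -3.82 with CNCM I-4317.

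The 2 *Lactobacillus* strains differed little from each other in young worms. The level was 0.37 log2 units higher on CNCM I-3690 than on CNCM I-4317 (standard error 0.43), and the arrays of the groups overlapped. CNCM I-3690 replicate 3 (4.06) stood above the other arrays of both groups.

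Among probe sets with 1 gene symbol, *dpy-14* and *mtre-1* came below *tts-1* in the ranking of falls on CNCM I-3690 against OP50 at 3 days. *dpy-14* averaged 3.07 on CNCM I-3690 and 5.41 on OP50, a log2 difference of -2.34 (standard error 0.70, limma adjusted p = 0.0800 over all probe sets). *mtre-1* averaged 0.85 on CNCM I-3690 and 2.85 on OP50, a log2 difference of -2.0 (standard error 0.52, limma adjusted p = 0.0474). Both had a smaller difference than *tts-1* and are named because they came next in rank.

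At 10 days the diets were close. *tts-1* differed by -0.14 log2 units (standard error 0.43) between CNCM I-3690 and OP50, and the arrays overlapped. Without CNCM I-3690 replicate 1, the lowest of that group, the difference was 0.062. It differed by -0.55 (standard error 0.43) between CNCM I-4317 and OP50, where all 3 arrays of CNCM I-4317 were below all 3 of OP50 with a gap of 0.19. CNCM I-3690 exceeded CNCM I-4317 by 0.41 (standard error 0.43), with overlapping arrays.

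The comparison of 10 with 3 days on each diet gives the change of *tts-1* with the feeding period. Age, stage and any progeny vary with that period and cannot be told apart here. The level was 37.2-fold higher at 10 days than at 3 days on CNCM I-3690, a log2 difference of 5.22 (standard error 0.43). It was 36.2-fold higher on CNCM I-4317, a log2 difference of 5.18 (standard error 0.43). On OP50 it was 6.22-fold higher, a log2 difference of 2.64 (standard error 0.43), or 1.90 without 3-day replicate 1. On each diet all 3 arrays of 10 days lay above all 3 of 3 days.

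The change with the feeding period was larger by 2.58 log2 units on CNCM I-3690 than on OP50 (standard error 0.61) and by 2.54 on CNCM I-4317 than on OP50 (standard error 0.61). Between both strains the changes differed by 0.04 (standard error 0.61). The larger changes on *Lactobacillus* came with the lower 3-day levels, since the 10-day levels of the diets lay close together. Among all probe sets the difference of *tts-1* ranked, from the most positive, 7 on CNCM I-3690, 4 on CNCM I-4317 and 40 on OP50.

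The probe sets with a larger positive difference were listed after their values were seen and are given without a test. On CNCM I-4317 they were *dct-7* (5.68) and the caenacin antimicrobial peptide genes *cnc-7* (5.49) and *cnc-4* (5.31). On CNCM I-3690 the same 3 genes stood above *tts-1*, with log2 differences of 6.47, 5.79 and 5.51, together with *srlf-34* (5.79) and the small heat shock protein genes *hsp-16.41* (6.32) and *hsp-16.2* (5.94). On OP50 the largest difference was that of the invertebrate lysozyme gene *ilys-3* (5.89).

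**Figure D2:**
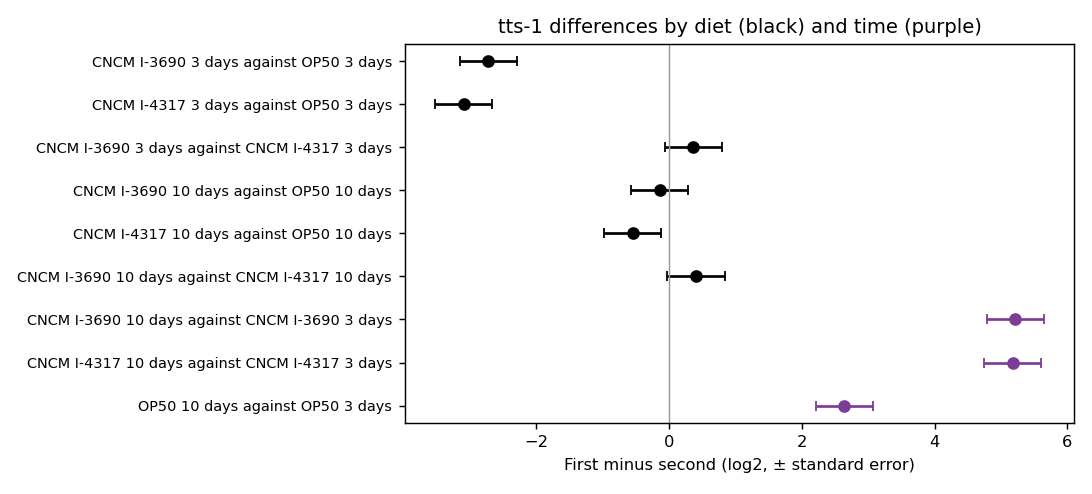
Differences in *tts-1* (log2, first-named minus second-named group, points) with their standard errors (bars, 0.43 each) for the 6 comparisons of diets (black) and the 3 of time (purple). The standard errors rest on a spread shared by all groups. The 3-day *Lactobacillus* diets lie at -2.72 and -3.09 against OP50, the 10-day differences between diets lie between -0.55 and 0.41, and the differences with time lie between 2.64 and 5.22.

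The genes whose levels followed *tts-1* most closely were ranked by Pearson's r over the 18 arrays among 1516 genes whose SD over the arrays was at least 0.5 and whose mean exceeded the median of all probe sets. Of these, 94 had r above 0.9 and 179 had r below -0.9. The arrays of 10 and 3 days form separate clusters, so r over all arrays mostly reads time, and r within the 9 arrays of each time is given beside it. Within 3 days r still reads the gap between OP50 and the *Lactobacillus* diets, for which *tts-1* was chosen. All these values are descriptions of genes chosen for likeness, on arrays that share their scaling. Probe sets whose ID ends in _s_at or _x_at can read related transcripts, so the source of their signal is uncertain. Among the genes named here this holds for *sip-1*, *lea-1*, *polq-1*, *col-81*, *hsp-25*, *vha-12*, *mtre-1*, *cnc-7*, *Y53F4B.45*, *rpl-11.2* and many list members.

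*sip-1*, a small heat shock protein gene, had the highest r (0.96), with 0.32 within 10 days and 0.86 within 3 days. Its means were 11.6 on all 3 diets at 10 days, and 10.3 on CNCM I-3690, 10.5 on CNCM I-4317 and 10.9 on OP50 at 3 days. Its range was far smaller than that of *tts-1*, and at 3 days CNCM I-3690 rather than CNCM I-4317 was lowest.

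*lea-1*, which encodes a late embryogenesis abundant protein needed to survive desiccation, had an r of 0.96 (0.39 within 10 days and 0.83 within 3 days). At 10 days its levels were 8.62, 9.06 and 8.68 on CNCM I-3690, 8.37, 9.16 and 8.68 with CNCM I-4317, and 9.0, 9.18 and 9.34 on OP50. At 3 days they were 6.54, 6.55 and 6.32 on CNCM I-3690, 5.55, 5.42 and 5.70 with CNCM I-4317, and 6.25, 7.73 and 7.09 on OP50. The 3-day OP50 array with the lowest *tts-1*, replicate 1, also had the lowest *lea-1* of its group. At 3 days *lea-1* lay lowest on CNCM I-4317, as *tts-1* did.

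The other genes among the 10 most alike were *ZC443.3*, *swah-1*, *Y23H5A.2*, *F14D2.11*, *smg-8* (nonsense-mediated mRNA decay), *lgmn-1* (a legumain-type protease), *polq-1* (DNA polymerase theta) and *tyms-1* (thymidylate synthase), with r from 0.95 to 0.96. Within 3 days, *ZC443.3* and *swah-1* had an r of 0.93 each. With the mean of each group removed, their r over the 18 arrays was 0.48 and 0.33, and that of *sip-1* was 0.53. Among the 10 alike genes this r ran from 0.33 for *swah-1* to 0.75 for *polq-1*. Within 10 days, the r of *smg-8* was -0.28 and that of *Y23H5A.2* was -0.29. Of the 10 alike genes 0 lie on chromosome X, where *tts-1* lies.

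The most opposite genes were *hprt-1*, which encodes the purine salvage enzyme hypoxanthine phosphoribosyltransferase (r of -0.97), the small heat shock protein gene *hsp-25* (-0.97), the cuticle collagen gene *col-81* (-0.96), the vacuolar proton pump subunit gene *vha-12* (-0.96) and *C14F11.4* (-0.96). *hprt-1* had an r of -0.54 within 10 days and -0.90 within 3 days, and *vha-12* had -0.68 and -0.85 for the same times. With the mean of each group removed, r ran from -0.77 for *hsp-25* to -0.45 for *C14F11.4*. Of these 5 genes, 3 lie on chromosome X.

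*col-81* showed the widest range among them. At 10 days its levels were 2.91, 3.36 and 1.3 on CNCM I-3690, 1.51, 1.61 and 1.22 with CNCM I-4317, and 1.56, 1.48 and 1.16 on OP50. At 3 days they were 8.92, 8.83 and 8.26 on CNCM I-3690, 8.82, 8.24 and 7.10 with CNCM I-4317, and 6.59, 4.86 and 5.31 on OP50. The OP50 array with the lowest *tts-1* at 3 days had the highest *col-81* of its group. Within 10 days the r of *col-81* was 0.07.

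**Figure D3:**
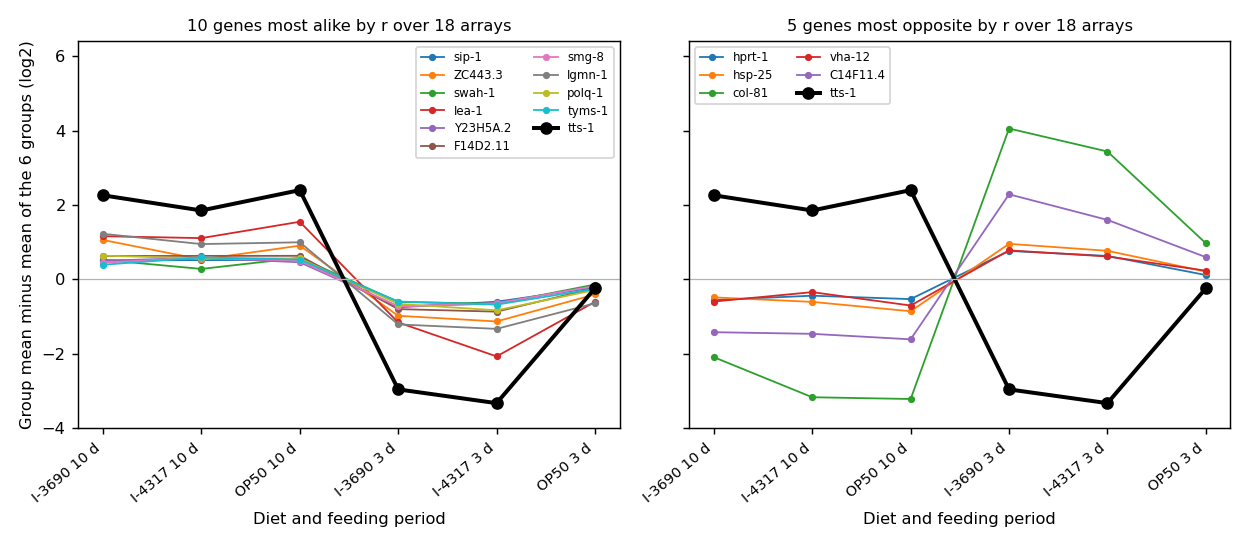
Group means of the 10 genes most alike to *tts-1* (left) and the 5 most opposite (right) by r over 18 arrays, each centred on the mean of its 6 group means (log2), with *tts-1* in black; lines join the groups of a gene. *lea-1* has the widest range among the alike genes and *col-81* among the opposite ones.

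The neighbours of *tts-1* on the chromosome stayed low. The nearest gene on one side, *F09E10.1*, averaged 1.73 on CNCM I-3690, 1.09 on CNCM I-4317 and 1.75 on OP50 at 10 days. At 3 days it averaged 2.44, 2.05 and 2.24 on the same diets. It was lower at 10 than at 3 days on CNCM I-3690 (-0.71, limma adjusted p = 0.0177) and also on CNCM I-4317 (-0.95, adjusted p = 0.00312), while its value on OP50 was -0.49 (adjusted p = 0.185). This is the opposite direction to that of *tts-1*.

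*F09E10.7*, the second gene on that side, fell with time on CNCM I-3690 (-0.63, adjusted p = 0.0190) and had differences of -0.31 on CNCM I-4317 (adjusted p = 0.276) and -0.21 on OP50 (adjusted p = 0.611). *F09E10.6* and the noncoding RNA gene *F09E10.10*, which lies 2 genes away on the other side, had group means of 0.45 to 0.80, below the array medians. None of these 4 genes passed the test between *Lactobacillus* and OP50 at 3 days, with adjusted p from 0.311 to 0.966. The noncoding RNA genes *F09E10.14* and *F09E10.15* have no probe set of their own.

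Other RNA genes were searched by name before the biotype of the annotation was used, and the names found 0 probe sets. The biotype, chosen after seeing the data, found 32 other RNA genes with a probe set. On CNCM I-3690 against OP50 at 3 days, 1 of the 32 rose and 0 fell (6.12% of all probe sets were called, 3.85% higher and 2.27% lower). On CNCM I-4317 against OP50, 0 were called by limma (0.115% of all probe sets). With time, 3 rose and 2 fell on CNCM I-3690 (29.8% of all probe sets were called, 17.3% higher). On CNCM I-4317, 4 rose and 1 fell (25.5% called, 15.4% higher and 10.0% lower), and on OP50, 3 rose and 2 fell (10.8% called, 5.41% higher and 5.37% lower).

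*lep-5*, a long noncoding RNA that times the juvenile-to-adult transition, was the gene that rose on CNCM I-3690 in young worms, at 7.28 against 6.54 on OP50 (0.74, limma adjusted p = 0.0910). It fell with time, by 1.41 on CNCM I-3690 (adjusted p = 0.000277), by 1.45 on CNCM I-4317 (adjusted p = 0.000271) and by 0.90 on OP50 (adjusted p = 0.0220). Its direction was opposite to that of *tts-1* in these 4 comparisons, and its r with *tts-1* over the 18 arrays was -0.82.

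*Y53F4B.45* was the RNA gene closest to *tts-1* (r of 0.93). It rose with time by 1.78 on CNCM I-3690, 2.11 on CNCM I-4317 and 2.2 on OP50 (adjusted p = 6.52e-05, 1.66e-05 and 2.45e-05). *F26D11.20* (r of 0.90) rose by 1.20 on CNCM I-3690, 1.34 on CNCM I-4317 and 0.76 on OP50 (adjusted p = 0.000128, 5.44e-05 and 0.0122). In young worms *Y53F4B.45* had adjusted p = 0.657 on CNCM I-3690 and 0.136 with CNCM I-4317, both against OP50.

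*tts-2*, which shares its name stem with *tts-1* and was looked up after the data were seen, lay low, above the median of its array by more than 1 log2 unit only on 3 OP50 arrays. At 10 days its levels were 0.89, 1.21 and 1.07 on CNCM I-3690, 0.56, 1.81 and 0.75 with CNCM I-4317, and 2.51, 1.26 and 1.14 on OP50. At 3 days its levels were 1.17, 1.11 and 0.99 on CNCM I-3690, 1.07, 0.92 and 1.89 with CNCM I-4317, and 2.70, 2.51 and 1.23 on OP50. The log2 differences from OP50 were -1.05 on CNCM I-3690 (limma adjusted p = 0.180) and -0.85 on CNCM I-4317 (adjusted p = 0.524), and the arrays of CNCM I-4317 overlapped with those of OP50. The high OP50 arrays at 3 days were replicates 1 and 2 for *tts-2* and replicates 2 and 3 for *tts-1*.

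Because *tts-1* is associated with ribosomes, the genes of the ribosome and of translation were read on the same arrays. In young worms 0 of 75 cytosolic ribosomal protein genes passed limma's test on CNCM I-3690 against OP50 (6.12% of all probe sets called). On CNCM I-4317 against OP50 0 passed as well (0.115% called). At an unadjusted p under 0.05 the counts were 1 and 2. The share of all probe sets at that level is not given here or below, so such counts have no background to be read against. Their median differences were -0.09 on CNCM I-3690 and -0.03 with CNCM I-4317, beside -0.05 and -0.01 over all probe sets. The largest single difference of a ribosomal protein gene was 0.45 on CNCM I-3690 and 0.26 with CNCM I-4317. As so few probe sets were called on CNCM I-4317 against OP50, 0 calls there say little about this list or those below.

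With time, 22 of the 75 cytosolic ribosomal proteins rose and 2 fell on CNCM I-3690 (17.3% of all probe sets rose), 6 rose and 1 fell on CNCM I-4317 (15.4%), and 5 rose and 0 fell on OP50 (5.41%). The changes were small, with medians of 0.15, 0.09 and 0.10 for CNCM I-3690, CNCM I-4317 and OP50. *rpl-23A.2*, a large-subunit gene, rose by 0.38 on CNCM I-3690 (standard error 0.09, adjusted p = 0.00398). *rps-27*, a small-subunit gene, rose by 0.33 on CNCM I-4317 (adjusted p = 0.00529). *rpl-11.2* fell by 0.80 on CNCM I-3690 (adjusted p = 0.0273) and by 0.72 on CNCM I-4317 (adjusted p = 0.0531), and over the alternatives these adjusted p reached 0.127 and 0.194.

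These counts depended on the scaling and on single arrays. After cyclic loess, 1 of the cytosolic ribosomal proteins rose and 3 fell on CNCM I-3690, with a median of -0.02, 3 rose and 2 fell on CNCM I-4317, and 0 rose and 0 fell on OP50, and after median centring 47, 14 and 2 rose on these diets. On CNCM I-3690, 12 rose without 3-day replicate 1, 10 without 3-day replicate 2 and 14 without 10-day replicate 2. On CNCM I-4317, 2 rose without 3-day replicate 1, 3-day replicate 2 or 10-day replicate 1, and 1 without 10-day replicate 3. On OP50, 0 to 2 rose without any 1 of the 6 arrays.

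Of 21 genes of ribosome biogenesis, 0 were called in young worms on either *Lactobacillus* diet against OP50 (unadjusted p under 0.05 in 1 on CNCM I-3690 and 3 with CNCM I-4317). With time 4 rose and 1 fell on CNCM I-3690, 5 rose and 1 fell on CNCM I-4317, and 2 rose and 1 fell on OP50. These shares were near those of all probe sets called with time (29.8%, 25.5% and 10.8%) and are no result about the list. *nol-56*, a nucleolar protein of the box C/D ribonucleoprotein, was the member that fell on each diet, by 0.36 on CNCM I-3690 (adjusted p = 0.0254), 0.58 on CNCM I-4317 (adjusted p = 0.00123) and 0.50 on OP50 (adjusted p = 0.00831). After cyclic loess 1 member of ribosome biogenesis rose on CNCM I-3690 and 1 with CNCM I-4317. On CNCM I-3690, 2 rose without 3-day replicate 1 or 3-day replicate 2. On CNCM I-4317, 2 rose without 3-day replicate 2, and 3 without 3-day replicate 3 or 10-day replicate 1.

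Of 37 translation factors, 0 were called in young worms on either *Lactobacillus* diet against OP50 (unadjusted p under 0.05 in 3 on CNCM I-3690 and 5 with CNCM I-4317). With time 10 rose and 3 fell on CNCM I-3690, 6 rose and 5 fell on CNCM I-4317, and 4 rose and 1 fell on OP50, again near the 29.8%, 25.5% and 10.8% of all probe sets called. *eif-3.I*, a subunit of initiation factor eIF3, led on each diet with rises of 1.32 on CNCM I-3690 (adjusted p = 0.000959), 1.72 on CNCM I-4317 (adjusted p = 0.000125) and 1.82 on OP50 (adjusted p = 0.000171). *ifg-1*, which encodes the scaffold eIF4G, fell by 0.70 on CNCM I-4317 (adjusted p = 0.00702). After cyclic loess 4 translation factors rose and 10 fell on CNCM I-3690, and 5 rose and 12 fell on CNCM I-4317. On CNCM I-3690, 6 rose without 3-day replicate 1.

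The insulin pathway through the receptor DAF-2 and the kinases PDK-1, AKT-1 and AKT-2 restrains DAF-16, and the phosphatase DAF-18 opposes it. Of 28 genes of insulin and TOR signaling, 0 rose and 2 fell in young worms on CNCM I-3690 against OP50, near the 6.12% of all probe sets called, and 0 were called on CNCM I-4317 against OP50 (unadjusted p under 0.05 in 3). *daf-18* averaged 7.49 on CNCM I-3690 and 8.13 on OP50 (-0.64, standard error 0.15, adjusted p = 0.0294). *rict-1*, the Rictor subunit of a TOR complex, averaged 4.83 on CNCM I-3690 and 5.29 on OP50 (-0.46, adjusted p = 0.0529). Over the alternatives tried, the adjusted p of *daf-18* reached 0.181 and that of *rict-1* reached 0.226. The differences were small for the receptor and the factor themselves in young CNCM I-3690 worms against OP50, -0.12 for *daf-2* (adjusted p = 0.705) and 0.10 for *daf-16* (adjusted p = 0.748), and the level of *daf-2* was 0.78 on CNCM I-3690, below the array medians.

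With time, 11 of the 28 insulin and TOR signaling genes rose on CNCM I-3690, 11 on CNCM I-4317 and 4 on OP50, beside 17.3%, 15.4% and 5.41% of all probe sets, and 0 fell on any diet. *rict-1* rose by 1.23 on CNCM I-3690, 1.40 on CNCM I-4317 and 0.77 on OP50 (adjusted p = 3.4e-06, 1.17e-06 and 0.000671). *pdk-1* rose by 1.13 on CNCM I-3690, 1.06 on CNCM I-4317 and 0.82 on OP50 (adjusted p = 0.000515, 0.00109 and 0.0149). *daf-16* rose by 0.49 on CNCM I-4317 (adjusted p = 0.00961), with 0.05 on CNCM I-3690 (adjusted p = 0.851) and 0.22 on OP50 (adjusted p = 0.383). After cyclic loess 8 rose and 2 fell on CNCM I-3690 and 6 rose on CNCM I-4317. On CNCM I-4317 the count was 6 without 3-day replicate 1 or without 10-day replicate 3.

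Of 16 genes of dauer TGF-beta and steroid signaling, which act beside the insulin pathway in the dauer decision, 0 were called in young worms on either *Lactobacillus* diet against OP50 (unadjusted p under 0.05 in 3 on CNCM I-3690 and 1 with CNCM I-4317). With time 2 rose and 1 fell on CNCM I-3690, 3 rose and 1 fell on CNCM I-4317, and 0 rose and 1 fell on OP50, no larger a share than that of all probe sets called (29.8%, 25.5% and 10.8%). The member that fell was *daf-36*, the Rieske oxygenase of dafachronic acid synthesis, by 1.41 on CNCM I-3690 (adjusted p = 5.25e-06), 0.99 on CNCM I-4317 (adjusted p = 0.000166) and 0.72 on OP50 (adjusted p = 0.00512). The type I receptor gene *daf-1* and the type II receptor gene *daf-4* rose on both *Lactobacillus* diets, by 0.49 and 0.48 on CNCM I-3690, with adjusted p up to 0.408 for *daf-1* and 0.330 for *daf-4* on CNCM I-3690, and up to 0.122 and 0.213 on CNCM I-4317, over the alternatives. Without 1 array, 0 or 1 rose on CNCM I-3690, 0 without 3-day replicate 1, 3-day replicate 2 or 10-day replicate 3 and 1 without any other. On CNCM I-4317, 1 rose without 3-day replicate 1, and on OP50 1 rose without 3-day replicate 2 or any 1 of the 10-day arrays.

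Of the 38 names of genes induced by DAF-16, 18 had a probe set of their own. In young CNCM I-3690 worms against OP50, 1 rose and 1 fell, beside 6.12% of all probe sets called. *hsp-12.3*, a small heat shock protein gene, rose by 0.69 (standard error 0.17, adjusted p = 0.0368), and *sip-1* fell by 0.53 (standard error 0.11). Since *sip-1* is also the gene most alike to *tts-1*, its fall is not separate from the choice by likeness. Over the alternatives the adjusted p of *hsp-12.3* reached 0.199. On CNCM I-4317 against OP50, 0 were called (0.115% of all probe sets called, unadjusted p under 0.05 in 2 members). The median difference was -0.03 on CNCM I-3690 and -0.25 with CNCM I-4317. *hsp-12.3* was also higher on CNCM I-3690 than on CNCM I-4317 (0.90, adjusted p = 0.0779, 0.119% of all probe sets called), with adjusted p up to 0.472 over the alternatives.

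With time many of the genes induced by DAF-16 rose, the direction of *tts-1*. On CNCM I-3690, 11 of 18 rose and 1 fell, on CNCM I-4317 11 rose and 1 fell, and on OP50 9 rose and 0 fell. Of all probe sets, 17.3%, 15.4% and 5.41% rose on these diets. The list holds *sip-1*, the gene most alike to *tts-1*, which rose by 0.75 on OP50. Its rise is not separate from the choice by likeness. The median differences of the list were 1.24, 1.0 and 0.72 for CNCM I-3690, CNCM I-4317 and OP50, beside 0.04, 0.03 and 0.02 over all probe sets. The counts of genes that rose stayed between 9 and 13 under both other scalings and without any 1 array.

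*hsp-16.41* rose by 6.32 on CNCM I-3690, 5.11 on CNCM I-4317 and 5.61 on OP50 (standard error 0.82 each; adjusted p = 4.13e-05, 0.000324 and 0.000310). The metallothionein gene *mtl-1* rose by 4.02 on CNCM I-3690 (adjusted p = 7.46e-07) and by 3.38 on OP50 (adjusted p = 1.18e-05). The ferritin gene *ftn-1* rose by 3.88 on CNCM I-4317 (adjusted p = 5.82e-06). On OP50 the rises included the lysozyme gene *lys-7* (3.35, adjusted p = 4.87e-06).

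At 10 days *lys-7* was the member of this group that separated the diets. It averaged 7.60 on CNCM I-3690 and 9.36 on OP50 (-1.76, standard error 0.31, adjusted p = 0.0227, 0.539% of all probe sets called). It averaged 7.41 on CNCM I-4317 (-1.95 against OP50, adjusted p = 0.00897, 0.937% called). The adjusted p of the CNCM I-3690 comparison reached 0.142 over the alternatives. *tts-1* differed from OP50 by -0.14 on CNCM I-3690 and by -0.55 on CNCM I-4317 at that time.

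Of 10 genes repressed by DAF-16, 1 rose and 0 fell in young worms on CNCM I-3690 against OP50, *dod-19* (1.25, adjusted p = 0.0291, up to 0.191 over the alternatives; 6.12% of all probe sets called), and 0 were called on CNCM I-4317 against OP50 (unadjusted p under 0.05 in 0). With time 4 rose and 1 fell on CNCM I-3690, 5 rose and 0 fell on CNCM I-4317, and 3 rose and 1 fell on OP50 (29.8%, 25.5% and 10.8% of all probe sets called). Of all probe sets, 17.3%, 15.4% and 5.41% rose on these diets. Members of both DAF-16 lists thus rose in larger shares than all probe sets did. The insulin-like peptide gene *ins-7* rose by 0.84 on CNCM I-3690 (adjusted p = 0.0395, up to 0.186 over the alternatives), 1.38 on CNCM I-4317 (adjusted p = 0.00239) and 2.06 on OP50 (adjusted p = 0.000185). *dod-23* rose by 1.5, 1.02 and 1.91 on these diets (adjusted p = 0.000145, 0.00353 and 4.46e-05). At 10 days *dod-23* was lower on CNCM I-4317 than on OP50 (-0.98, adjusted p = 0.0724, up to 0.207 over the alternatives), and the ribosome biogenesis gene *lpd-6* was higher (0.54, adjusted p = 0.0691, up to 0.241). Between CNCM I-3690 worms and CNCM I-4317 worms of 10 days, limma called 0 of the 205 genes of all these lists (0.0177% of all probe sets), with 26 at an unadjusted p under 0.05.

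**Figure D4:**
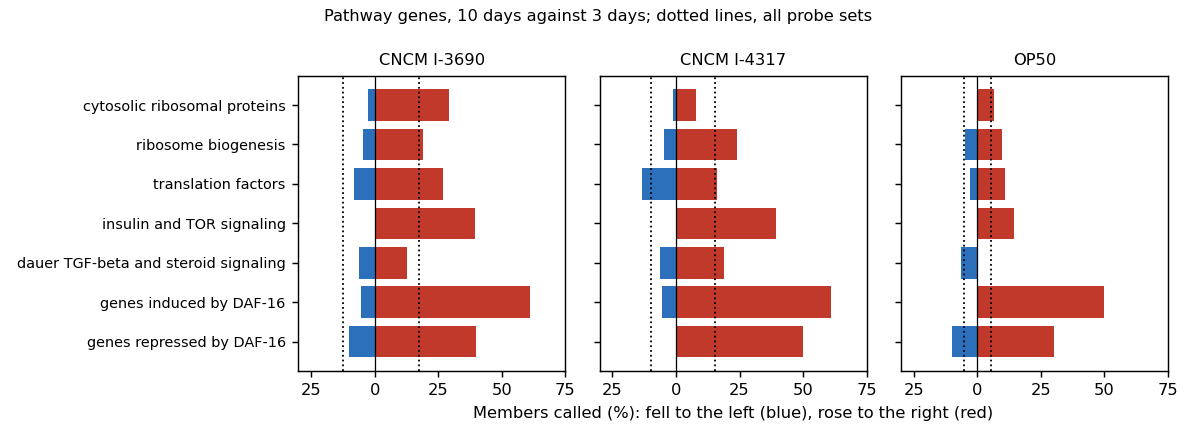
Share of the measured members of each pathway list that rose (red, right) or fell (blue, left) at 10 against 3 days on each diet, in percent, with dotted lines at the share of all probe sets called in that direction. The genes induced by DAF-16 rose in 11 of 18, 11 of 18 and 9 of 18 on CNCM I-3690, CNCM I-4317 and OP50, against 17.3%, 15.4% and 5.41% of all probe sets.

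Sperm genes differed between the same groups as *tts-1*. The summed signal of 39 sperm genes (log2) was 10.7, 9.91 and 7.21 at 10 days on CNCM I-3690, 10.2, 7.36 and 7.32 with CNCM I-4317, and 7.13, 7.61 and 7.18 on OP50. At 3 days it was 14.2, 14.2 and 13.2 on CNCM I-3690, 14, 13.3 and 11.9 with CNCM I-4317, and 11.1, 9.90 and 9.57 on OP50. The sperm genes were thus highest in the young *Lactobacillus* worms, where *tts-1* was lowest. Many of these genes are near-identical major sperm protein genes, so single members are uncertain, and the list was chosen with its behaviour on these arrays known.

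By count, 33 of 39 sperm genes rose and 0 fell in young worms on CNCM I-3690 against OP50 (3.85% of all probe sets were higher and 2.27% lower), 22 to 35 without 1 array. On CNCM I-4317 against OP50, 2 rose and 0 fell (unadjusted p under 0.05 in 36), beside 0.080% of all probe sets higher and 0.035% lower. The count of 2 was 23 without CNCM I-4317 replicate 3, 8 without OP50 replicate 1 and 0 without any other array of these groups. With time 38 sperm genes fell on CNCM I-3690, 37 on CNCM I-4317 and 21 on OP50, and 0 rose, while 12.56% of all probe sets were lower on CNCM I-3690, 10.0% on CNCM I-4317 and 5.37% on OP50. On OP50 the count was 2 without 3-day replicate 1, 13 without 10-day replicate 2 and 7 without 10-day replicate 3. Their part in the differences of *tts-1* was not tested.

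Within groups the values ran as follows. In the 3-day OP50 worms, replicate 1 had the lowest *tts-1* (4.68) and the highest sperm signal (11.1). The highest *tts-1* of that group (7.11, replicate 2) was not on the array with the lowest sperm signal (9.57, replicate 3). In the 3-day CNCM I-3690 worms, replicate 3 had the highest *tts-1* (4.06) and the lowest sperm signal (13.2). In the 3-day CNCM I-4317 worms, replicate 3 likewise had the highest *tts-1* (3.14) and the lowest sperm signal (11.9), over a range of *tts-1* of 3.03 to 3.14. The 10-day groups differed in this. On CNCM I-4317, replicate 1 had both the highest *tts-1* (8.51) and the highest sperm signal (10.2). On CNCM I-3690, replicate 1 had the lowest *tts-1* (8.25) and the highest sperm signal (10.7). On OP50, the array with the highest sperm signal (7.61, replicate 2) had the middle *tts-1* (8.82).

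**Figure D5:**
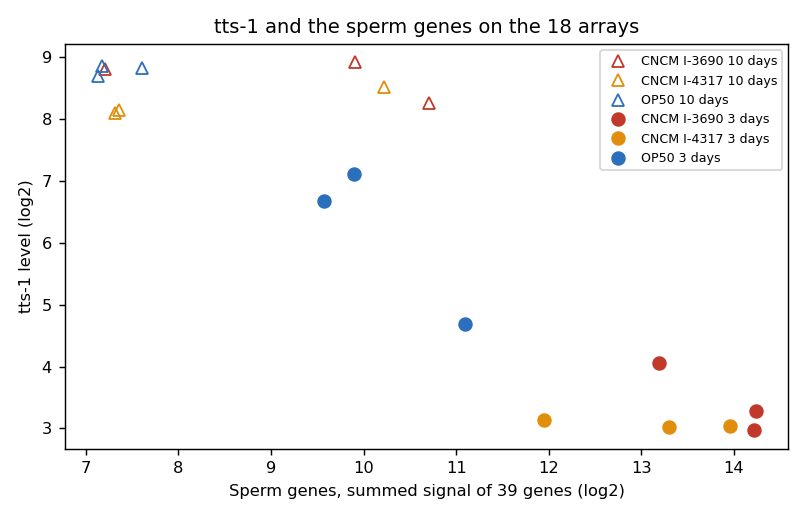
Level of *tts-1* (log2) against the summed signal of 39 sperm genes (log2) on the 18 arrays, with diets as colours, 10-day arrays as open triangles and 3-day arrays as filled circles. The 10-day arrays have *tts-1* levels of 8.09 to 8.91 over sperm signals of 7.13 to 10.7, and the CNCM I-4317 arrays of 3 days have levels of 3.03 to 3.14 over sperm signals of 11.9 to 14.

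Of 21 oocyte and eggshell genes, 0 rose and 9 fell in young worms on CNCM I-3690 against OP50 (2.27% of all probe sets were lower), and 0 were called by limma on CNCM I-4317 (unadjusted p under 0.05 in 7), or 4 without CNCM I-4317 replicate 3. The count of 9 was 0 without OP50 replicate 2, CNCM I-3690 replicate 1 or CNCM I-3690 replicate 2, 1 without OP50 replicate 3, 5 without OP50 replicate 1, 14 without CNCM I-3690 replicate 3 and 2 after cyclic loess. With time 20 rose on CNCM I-3690, 17 on CNCM I-4317 and 4 on OP50, in the direction of *tts-1* (17.3%, 15.4% and 5.41% of all probe sets were higher). On OP50, 2 rose without 10-day replicate 2 or 10-day replicate 3. The eggshell gene *cpg-2* was lower on CNCM I-3690 than on OP50 at 3 days (-0.47, adjusted p = 0.0268, up to 0.149 over the alternatives) and rose with time by 0.96 on CNCM I-3690, 0.82 on CNCM I-4317 and 0.44 on OP50 (adjusted p = 9.41e-06, 4.9e-05 and 0.0160). The summed signal of the oocyte and eggshell genes was 12.7 to 12.9 on CNCM I-3690, 12.8 to 13.1 on CNCM I-4317 and 13.2 on each OP50 array at 3 days.

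Many marker genes of body wall muscle, hypodermis and intestine fell with time. Of 14 neuron genes, 3 fell on CNCM I-3690, 2 on CNCM I-4317 and 0 on OP50, and 1 rose on each diet. These neuron counts were near the 29.8%, 25.5% and 10.8% of all probe sets called. Without 1 array, 1 to 3 neuron genes fell on each *Lactobacillus* diet. Of 12 body wall muscle genes, 11 fell on CNCM I-3690, 11 on CNCM I-4317 and 9 on OP50, and of 18 hypodermis and cuticle genes 12, 12 and 5 fell on these diets, beside 12.56%, 10.0% and 5.37% of all probe sets. The hypodermis and cuticle count was 7 on CNCM I-3690 without 10-day replicate 2 and 10 on OP50 without 10-day replicate 1. Of 11 intestine genes, 8 fell on CNCM I-3690, 9 on CNCM I-4317 and 5 on OP50, and 1 rose on each diet. On OP50 the intestine count was 3 without 3-day replicate 1 or 3-day replicate 3, 2 without 10-day replicate 2 and 1 without 10-day replicate 3.

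In young worms 2 of the 11 intestine genes rose and 0 fell on CNCM I-3690 against OP50 (3.85% of all probe sets were higher), with a median difference of 0.71 and an unadjusted p under 0.05 in 7. They were *nhx-2*, a sodium-proton exchanger gene of the gut (1.12, adjusted p = 0.00501), and the inositol trisphosphate receptor gene *itr-1* (0.81, adjusted p = 0.00777, from a probe set ending in _s_at). On CNCM I-4317 against OP50, 0 were called by limma, with a median of 0.48 and an unadjusted p under 0.05 in 4. The summed signal of the intestine genes (log2) at 3 days was 10.8 to 10.9 on CNCM I-3690, 10.8 to 11.04 with CNCM I-4317, and 10.2 to 10.5 on OP50. The part of these tissues in the differences of *tts-1* was not tested.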

How the data were processed

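Affymetrix *C. elegans* Genome Arrays were hybridised with RNA labelled by a 3′ IVT kit. The authors deposited log2 expression values, background corrected with RMA and quantile normalized; software versions and genome build are not given in the sources used here. Deposited values ran from -0.06 to 12.0, and no detection calls were used. Symbols came from the platform annotation, updated to RefSeq through Entrez identifiers, and 1 probe set of highest mean stood for each gene. With limma 3.58.1 in R 4.3.3, 1 model of 6 group means was fitted to the 18 arrays (12 residual and 4.09 prior degrees of freedom). Calls were made at an adjusted p (Benjamini-Hochberg) under 0.1 over all 22625 probe sets of a comparison, for 9 comparisons. The model was tested on simulated data. The transcript, the gene lists and the tests were chosen with earlier results of these data known. Named genes were *tts-1*, the 10 most alike and 5 most opposite genes by Pearson's r (SD of at least 0.5 and mean above the median of all probe sets), its 3 chromosome neighbours on each side, the next genes in rank, and, per list and comparison, at most 4 called members. Alternatives were median centring, cyclic loess, the replicate number as a block, a filter at the 40th percentile, a threshold of 0.05, other eBayes settings, the 9 arrays of 1 time, other measures of likeness and leaving out each array.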

Additional observations from a re-analysis of the deposited data

How the results depend on the processing

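The differences of *tts-1* kept their direction under median centring and cyclic loess. The largest departure was on CNCM I-3690 with time, 5.31 after centring and 4.95 after loess, against 5.22. The mean on CNCM I-4317 at 3 days was 3.16 after loess, against 3.07. Replicate numbers did not clearly pair the arrays (15 of 45 same-number pairs had r over 0.1, from -0.32 to 0.47, and 10 of 18 arrays correlated best with their own number). The mean r was 0.048 for the same number and -0.023 for different numbers, so a weak pairing is not excluded. With each number once in every group, the block cannot change a difference of group means, so its *tts-1* values say nothing of stability.

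Without 1 array, the 10-day means of *tts-1* ran from 8.53 to 8.86 on CNCM I-3690, 8.12 to 8.33 on CNCM I-4317 and 8.76 to 8.84 on OP50. The 3-day means ran from 3.12 to 3.67 on CNCM I-3690, 3.03 to 3.09 on CNCM I-4317 and 5.68 to 6.89 on OP50. The 3-day differences ran from -3.45 to -2.24 for CNCM I-3690 against OP50, -3.82 to -2.61 for CNCM I-4317 against OP50 and 0.06 to 0.60 between the strains. The 10-day differences ran from -0.27 to 0.06, -0.68 to -0.47 and 0.28 to 0.61 for the same pairs. The value for CNCM I-3690 against OP50 was 0.062, reversed in sign, without CNCM I-3690 10 days replicate 1. The differences with time ran from 4.98 to 5.53 on CNCM I-3690, 5.05 to 5.26 on CNCM I-4317 and 1.90 to 3.12 on OP50.

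Among the 205 pathway genes, 5 were called at 3 days for CNCM I-3690 against OP50, 11 in a fit of the 9 arrays of that time, 8 with the replicate block, and 2 to 13 without 1 array (3 without OP50 replicate 2, 2 without CNCM I-3690 replicate 1 or 2, 13 without replicate 3). For CNCM I-4317 against OP50, 0 were called, 1 in the fit of 1 time and 0 to 2 without 1 array (2 without CNCM I-4317 replicate 3). Between the strains 1 was called, 0 at a threshold of 0.05, in the fit of 1 time or with the replicate block, and 0 to 4 without 1 array (4 without CNCM I-3690 replicate 3, 2 without CNCM I-4317 replicate 1, 0 without any other). At 10 days, 1 was called for CNCM I-3690 against OP50, 0 in the fit of 1 time and 0 to 3 without 1 array (3 without OP50 replicate 1, 0 without OP50 replicate 2 or CNCM I-3690 replicate 1). For CNCM I-4317 against OP50, 3 were called, 1 at a threshold of 0.05 or in the fit of 1 time, and 1 to 5 without 1 array (5 without CNCM I-4317 replicate 2, 1 without CNCM I-4317 replicate 1 or 3 or OP50 replicate 2 or 3). Between the strains at 10 days, 0 were called with any array left out. Of all probe sets, 6.12% were called at 3 days for CNCM I-3690 against OP50, a larger share than that of the 205 genes. The shares were 0.115% for CNCM I-4317 against OP50 and 0.119% between the strains. At 10 days they were 0.539%, 0.937% and 0.0177% for the same pairs. With time 29.8%, 25.5% and 10.8% of all probe sets were called on CNCM I-3690, CNCM I-4317 and OP50. Of the 205 pathway genes 73, 56 and 31 were called on these diets, somewhat larger shares. Without 1 array these counts were 50 to 78, 39 to 59 and 23 to 35.

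The direction of these calls moved with the scaling. On CNCM I-3690 with time 64 rose and 9 fell, 100 and 9 after centring, and 29 and 20 after loess. On CNCM I-4317 47 rose and 9 fell, 68 and 7 after centring, and 29 and 20 after loess. Over all probe sets called on CNCM I-3690 with time, 57.9% rose, 69.9% after centring and 40.1% after loess, and centring moved the median of all probe sets to 0.13. On CNCM I-4317 these shares were 60.6%, 69.6% and 46.2%. For CNCM I-3690 against OP50 at 3 days they were 62.9%, 52.7% and 85.2%. Of the 15 genes most alike or opposite, 2 were shared with a Spearman ranking, 8 after removing the mean of each time, 12 after centring, 8 after loess and 11 with no minimum. The causes were not tested. Levels near the array medians are limited by the floor of the signal.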
